A study of Mus musculus with 10 samples.

Results

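Adipoq, Plin1, Cidec, Cfd, Fabp4, Retn and Lep, 7 transcripts known from fat cells, were followed through RNA-sequencing libraries of mouse jejunum. They were found by gene symbol, each in 1 of the 45707 rows of the table of normalized counts. They were selected on measured values, because they had appeared at uneven levels between libraries, so their unevenness is described below and not tested. The set was labelled as fat attached to the jejunum, and this source was not tested. Of the 7, 6 passed the filter used for the comparison of genotypes (5 or more of the 10 mice at 10 normalized counts or above), and Lep did not.

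The 10 libraries represent 2 genotypes, Vil-Cre (5 controls) and Vil-Cre:NDI1 (5 animals), and each mouse gave 1 library. All carried Villin-Cre, a transgene that drives recombination in intestinal epithelium, and Vil-Cre:NDI1 mice also carried NDI1, the NADH dehydrogenase of Saccharomyces cerevisiae, at ROSA26 behind a lox-stop-lox sequence, so that recombination, and with it NDI1, is directed to the epithelium. They were littermate males, of an age that the labels do not give, that had been fasted overnight, gavaged with water and then killed. Jejunal tissue was frozen after its contents had been flushed out, and the methods used here do not say how the attached mesentery was trimmed. A normalized count is the number of reads assigned to a gene divided by the size factor of its library, and 1 read was worth between 0.911 and 1.17 normalized counts. Depth was similar, with 10145705 to 12371530 reads on genes in a library. Vil1, the epithelial villin gene, was at 35067 to 49249 normalized counts in all 10 libraries, and NDI1 was at 982 to 2575 in the mice that carry it and at 0 to 1.00 in controls. No other annotated gene overlapped any of the 7 loci.

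White adipocytes store triglyceride in a single large lipid droplet and release fatty acids from it during a fast. They also act as an endocrine tissue that secretes adiponectin, leptin, complement factor D and, in mice, resistin. Mesenteric fat runs along the vessels that reach the gut wall, and its adipocytes lie directly against the outer surface of the jejunum. The 7 genes cover both roles: Adipoq (adiponectin), Cfd (complement factor D, or adipsin, the protease that cleaves factor B in the alternative pathway), Retn (resistin) and Lep (leptin) encode secreted proteins, whereas Plin1 (perilipin 1, the coat protein that gates lipolysis), Cidec (which promotes fusion of lipid droplets) and Fabp4 (a carrier of fatty acids in the cytosol) act inside the cell. In a bulk library, fewer cells of a type and less RNA per cell cannot be told apart.

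The 250 bases upstream of the start site are shown for Adipoq and Cfd, which were nearly absent from some libraries, and for both start sites of Cidec, which was abundant in every library. The sequences are from RefSeq on GRCm38.p6, 5′ to 3′ on the gene's strand, and capitals mark motif matches.

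Adipoq, chr16:23146286-23146535, plus strand: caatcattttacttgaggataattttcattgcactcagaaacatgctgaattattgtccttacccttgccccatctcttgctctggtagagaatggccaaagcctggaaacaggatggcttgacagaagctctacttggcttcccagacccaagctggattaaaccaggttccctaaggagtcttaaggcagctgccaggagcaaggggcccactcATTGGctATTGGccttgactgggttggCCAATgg
Cfd, chr10:79890603-79890852, plus strand: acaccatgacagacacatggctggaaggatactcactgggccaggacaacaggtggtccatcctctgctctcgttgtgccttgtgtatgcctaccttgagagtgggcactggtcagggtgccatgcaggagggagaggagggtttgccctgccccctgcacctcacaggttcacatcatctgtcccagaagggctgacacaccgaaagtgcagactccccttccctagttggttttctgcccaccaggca
Cidec, first start site, chr6:113435761-113436010, minus strand: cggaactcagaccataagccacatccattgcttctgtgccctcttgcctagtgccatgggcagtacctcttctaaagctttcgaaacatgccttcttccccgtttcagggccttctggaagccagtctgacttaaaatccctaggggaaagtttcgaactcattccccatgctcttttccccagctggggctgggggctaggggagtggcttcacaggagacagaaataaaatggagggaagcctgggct
Cidec, second start site, chr6:113434765-113435014, minus strand: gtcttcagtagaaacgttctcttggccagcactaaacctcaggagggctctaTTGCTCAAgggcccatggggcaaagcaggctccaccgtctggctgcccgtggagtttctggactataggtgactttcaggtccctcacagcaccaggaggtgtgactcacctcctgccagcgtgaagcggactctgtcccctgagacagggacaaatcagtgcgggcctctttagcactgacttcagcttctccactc

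Motifs were searched on both strands of these windows for the 6 members with an entry (Fabp4 had none): AGGTCA (the hexamer bound by nuclear receptors), a direct repeat of that hexamer with 1 base between the copies, TTGCNNAA (a C/EBP motif), TATAAA (the core of a TATA box), CCAAT (the motif of the factor NF-Y) and GGGCGG (the GC box of Sp factors). Adipoq held 3 matches to CCAAT, a motif present in 34.5% of the windows of 27025 genes. TTGCNNAA was matched in the windows of Plin1 (2 matches) and Lep (1 match), against 9.55% of all genes. These shares of all genes count 1 window per gene. Cidec, with 2 windows, matched TTGCNNAA at its second start site and not at its first. AGGTCA was in none of the members' windows and in 13.8% of all. Cfd and the first start site of Cidec held none of the motifs searched. These are matches of letters in a short window. The transcript Cidec-202 begins at the first start site and Cidec-203 at the second, whose window lies in an intron of Cidec-202, and a table with 1 value per gene does not separate them.

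Adipoq (ENSMUSG00000022878, GRCm38 chromosome 16, 23146536 to 23158028) encodes adiponectin, a hormone made almost entirely by adipocytes. Its normalized counts in Vil-Cre replicates 1 to 5 were 113, 164, 72.1, 1.01 and 7.77, and those in Vil-Cre:NDI1 replicates 1 to 5 were 0, 48.3, 66.8, 63.7 and 56.3. Thus 7 libraries lay at 48.3 or above, whereas Vil-Cre 4 had 1 read, Vil-Cre 5 had 8 reads and Vil-Cre:NDI1 1 had none. Taking 3 reads as the limit for a library with none, the highest library was 55.8-fold above that limit in Vil-Cre:NDI1 1. This ratio leaves out counting error, and the exact 95% upper limit for no read is 3.69 reads.

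Cfd (ENSMUSG00000061780, chromosome 10, 79890853 to 79892655) showed the widest span. Vil-Cre mice had 603, 975, 296, 5.06 and 76.7 normalized counts, and Vil-Cre:NDI1 mice had 0.98, 186, 334, 215 and 167. The libraries low in Adipoq were also the lowest in Cfd, which was reduced to 5 reads in Vil-Cre 4 and to 1 read in Vil-Cre:NDI1 1. The highest library was 995-fold above the lowest, with a 95% counting interval from 178 to 39333 because the lower value rests on 1 read.

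Retn (ENSMUSG00000012705, chromosome 8, 3655770 to 3660110) was much scarcer, at 19.6, 17.5, 6.01, 0 and 0 in Vil-Cre mice and 0, 5.47, 17.4, 13.7 and 17.6 in Vil-Cre:NDI1 mice. No library exceeded 21 reads, and the 3 libraries without a read were again Vil-Cre 4, Vil-Cre 5 and Vil-Cre:NDI1 1. The highest library was 6.47-fold above the same limit of 3 reads. Its own 95% counting interval ran from 12.1 to 30.0 normalized counts, which this ratio leaves out.

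Lep (ENSMUSG00000059201, chromosome 6, 29060220 to 29073877), the leptin gene, was at the edge of detection. Its values were 1.87, 0, 10.02, 0 and 0 in Vil-Cre mice and 0, 0, 1.94, 18.6 and 7.04 in Vil-Cre:NDI1 mice. It had no read in 5 libraries, 2 of which, Vil-Cre 2 and Vil-Cre:NDI1 2, had ample Adipoq. Vil-Cre 2, the library highest in Adipoq and Cfd, therefore had no leptin read, whereas Vil-Cre:NDI1 4 had 19.

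Plin1 (ENSMUSG00000030546, chromosome 7, 79720218 to 79732903) followed the secreted genes. Its values were 26.2, 51.4, 40.1, 4.04 and 0.971 in Vil-Cre mice and 0, 18.2, 27.1, 59.7 and 28.2 in Vil-Cre:NDI1 mice. The libraries below 10 were the 3 that were low in Adipoq. The highest was Vil-Cre:NDI1 4, which was 20.3-fold above the limit of 3 reads in Vil-Cre:NDI1 1, with counting error left out.

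Fabp4 (ENSMUSG00000062515, chromosome 3, 10204088 to 10208576) is made by adipocytes and also, as background, by capillary endothelium and some macrophages. It was at 655, 594, 472, 117 and 237 in Vil-Cre mice and at 258, 373, 480, 611 and 635 in Vil-Cre:NDI1 mice. The order of the libraries was like that of Adipoq at its lower end, but the range was only 5.59-fold (95% counting interval 4.58 to 6.86). In Vil-Cre:NDI1 1, where Adipoq, Plin1, Retn and Lep had no read, Fabp4 still had 263 reads. Its ratio to Pecam1, an endothelial adhesion molecule, ran from 0.795 in Vil-Cre 4 to 3.34 in Vil-Cre:NDI1 4, and was 0.884 in Vil-Cre 5 and 1.05 in Vil-Cre:NDI1 1.

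Cidec (ENSMUSG00000030278, chromosome 6, 113424634 to 113435760) went against the label of an adipocyte transcript in that it was abundant in every library. Its lowest values were nevertheless in Vil-Cre 5 and Vil-Cre 4, which were both low in Adipoq. Vil-Cre mice had 1637, 1650, 1851, 1103 and 922 normalized counts, and Vil-Cre:NDI1 mice had 1494, 1329, 1816, 1208 and 1464. The highest library was 2.01-fold above the lowest (95% counting interval 1.86 to 2.17). Vil-Cre:NDI1 1, with no Adipoq read, had 1524 reads of Cidec, or 1494 normalized counts, against a median of 1479 over the 10 libraries. The coefficient of variation over the 10 libraries was 21.2% for Cidec and 42.7% for Fabp4, against 80.6% for Plin1, 84.7% for Retn, 86.7% for Adipoq, 105% for Cfd and 157% for Lep.

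**Figure D1:**
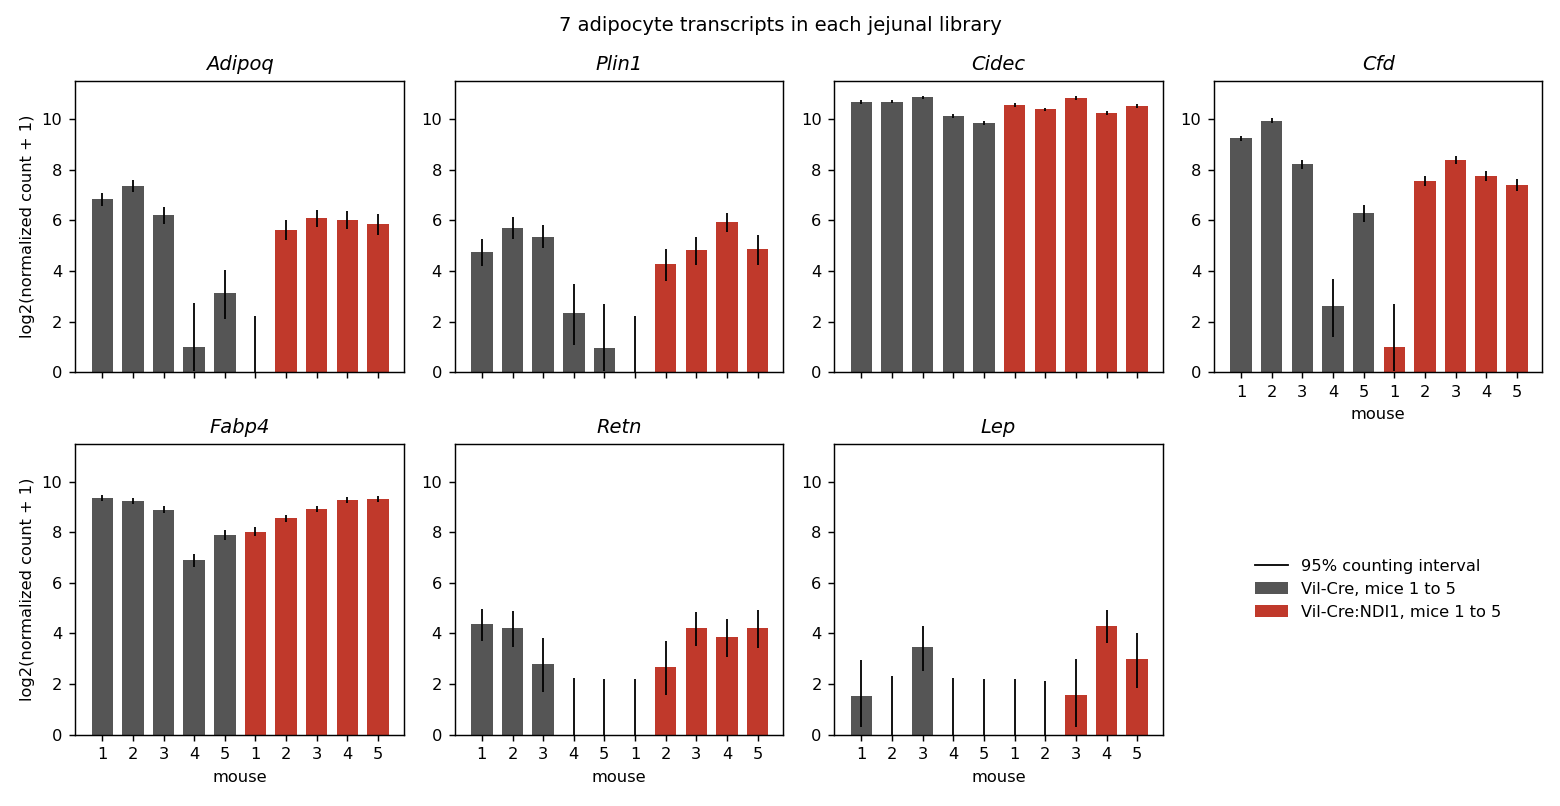
Normalized counts of the 7 transcripts in each library, as log2(normalized count + 1), with grey bars for Vil-Cre mice 1 to 5, red bars for Vil-Cre:NDI1 mice 1 to 5 and vertical lines for the 95% counting interval. Adipoq, Plin1, Cfd and Retn are at or near 0 in Vil-Cre 4 and Vil-Cre:NDI1 1, while Cidec is between 922 and 1851 normalized counts in all 10.

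Per kilobase of the longest coding transcript, Cidec was the most abundant of the 7, at 842 ± 178 normalized counts (SD, n = 10 libraries). Fabp4 followed at 495 ± 211, Cfd at 310 ± 326 and Adipoq at 45.9 ± 39.8. Plin1 (9.09 ± 7.33), Retn (8.55 ± 7.24) and Lep (1.21 ± 1.91) were scarce. The order held in most single libraries: Cidec was above Fabp4 in 10 of 10, Fabp4 above Cfd in 9, Cfd above Adipoq in 10, and Adipoq above Plin1 in 8. Plin1 and Retn did not differ beyond their spread, with Plin1 above in 6 of 10. Over the union of all annotated exons, which for Fabp4 is 4.489 kb instead of 0.896 kb because it includes a transcript with a retained intron, Fabp4 (98.7 per kilobase) falls below Cfd.

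The 7 transcripts summed to between 1231 normalized counts (Vil-Cre 4) and 3453 (Vil-Cre 2), a 2.81-fold range, or between 111 and 311 reads in each 1000000 reads on genes. Cidec made up 47.8% to 89.6% of this sum. Without Cidec, a sum added after the values were seen, the range was 14.1-fold, from 127 to 1802. The sum of Adipoq, Cfd, Plin1 and Retn, also chosen after the values were seen, ran from 0.98 in Vil-Cre:NDI1 1, where it rests on 1 read, through 10.1 in Vil-Cre 4 and 85.5 in Vil-Cre 5, to between 258 and 1208 in the other 7 libraries. Cidec was the largest single part of the sum in every library.

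Where Adipoq had more than 3 reads, the proportions of the secreted genes could be compared within a library. The Cfd to Adipoq ratio was 5.33, 5.94, 4.10 and 9.88 in Vil-Cre replicates 1, 2, 3 and 5, and 3.85, 5.00, 3.38 and 2.96 in Vil-Cre:NDI1 replicates 2 to 5. The library with the ratio of 9.88, Vil-Cre 5, had only 8 Adipoq reads. Over the 7 libraries with more than 20 Adipoq reads, the ratio spanned 2.01-fold, while Adipoq itself spanned 3.40-fold and Cfd 5.85-fold. Plin1 and Retn relative to Adipoq were less even over these 7, spanning 4.06-fold and 3.75-fold. They rest on fewer reads, 20 to 61 for Plin1 and 6 to 21 for Retn against 142 to 891 for Cfd. Counting error therefore weighs more on their spans, which are not directly comparable with that of Cfd.

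Each member was also set against the mean log2(normalized count + 1) of the other 6 over the 10 libraries, which share one table and one scaling. Pearson's r was 0.96 for Adipoq, 0.94 for Retn, 0.93 for Plin1, 0.89 for Fabp4 and 0.88 for Cfd, but 0.53 for Cidec and 0.53 for Lep. The libraries form 2 clusters on this scale, and r over the 7 with more than 20 Adipoq reads was 0.81 for Fabp4, 0.68 for Plin1, 0.46 for Retn, 0.46 for Adipoq, 0.20 for Cfd, 0.16 for Cidec and -0.13 for Lep. Without Vil-Cre 4 and Vil-Cre:NDI1 1, the 2 libraries farthest from the median, r ran from 0.33 (Lep) to 0.94 (Plin1 and Fabp4). On that basis it was 0.65 for Cfd and 0.75 for Cidec. The high values over all 10 rest largely on the gap between 3 low libraries and the rest.

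Paralogs give a second view of the droplet and carrier genes, because enterocytes, which package dietary fat into chylomicrons, express related proteins. Cideb, which acts in lipoprotein assembly in liver and gut, was at 2082 to 3328 normalized counts, and per kilobase of transcript its mean was 2.75 times that of Cidec. The Cidec to Cideb ratio stayed between 0.372 in Vil-Cre 4 and 0.664 in Vil-Cre 1, and was 0.491 in Vil-Cre:NDI1 1. Cidea, the member of this family typical of brown fat, was at 1.94 to 15.3, and the mean of Cidec per kilobase was 103 times higher. Like Cideb and unlike Adipoq, Cidec was abundant in every library, with at least 949 reads.

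Among the perilipins, Plin3, which coats small droplets in many cells, was at 5157 to 6726 normalized counts and Plin2, the droplet coat of non-adipose cells, at 480 to 772. Per kilobase of transcript their means were 177 and 36.9 times that of Plin1. Plin4, a perilipin rich in white fat, was at 254, 302, 235, 84.9 and 167 in Vil-Cre mice and 120, 120, 220, 145 and 189 in Vil-Cre:NDI1 mice, with its 3 lowest values in Vil-Cre 4, Vil-Cre:NDI1 1 and Vil-Cre:NDI1 2. Plin5, the perilipin of oxidative tissue, never exceeded 6.57.

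Among the fatty acid binding proteins, the enterocyte forms dwarfed Fabp4: the mean of Fabp2 per kilobase of transcript was 135 times that of Fabp4, and the mean of Fabp1 was 43.6 times. Fabp1 ranged from 3735 to 17987 normalized counts and Fabp2 from 41060 to 124876. Fabp6, the bile acid carrier typical of the ileum, was uneven in a different set of libraries, at 1477 in Vil-Cre 5, 772 in Vil-Cre:NDI1 4, 325 in Vil-Cre 2, 201 in Vil-Cre:NDI1 5 and 36.4 in Vil-Cre 1, and at 5.01 or less in the other 5. Fabp5 was at 24.7 to 71.9, and Fabp3, Fabp7, Fabp9 and Fabp12 never exceeded 11.02. Of the resistin family, Retnla, also made in white fat and by macrophages, was absent from Vil-Cre 4 (0) and nearly so from Vil-Cre:NDI1 1 (0.98) but at 13.6 in Vil-Cre 5, where Retn had no read. Retnlb, the goblet cell form, peaked at 13.6 in Vil-Cre 5, and Retnlg never exceeded 2.94.

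**Figure D2:**
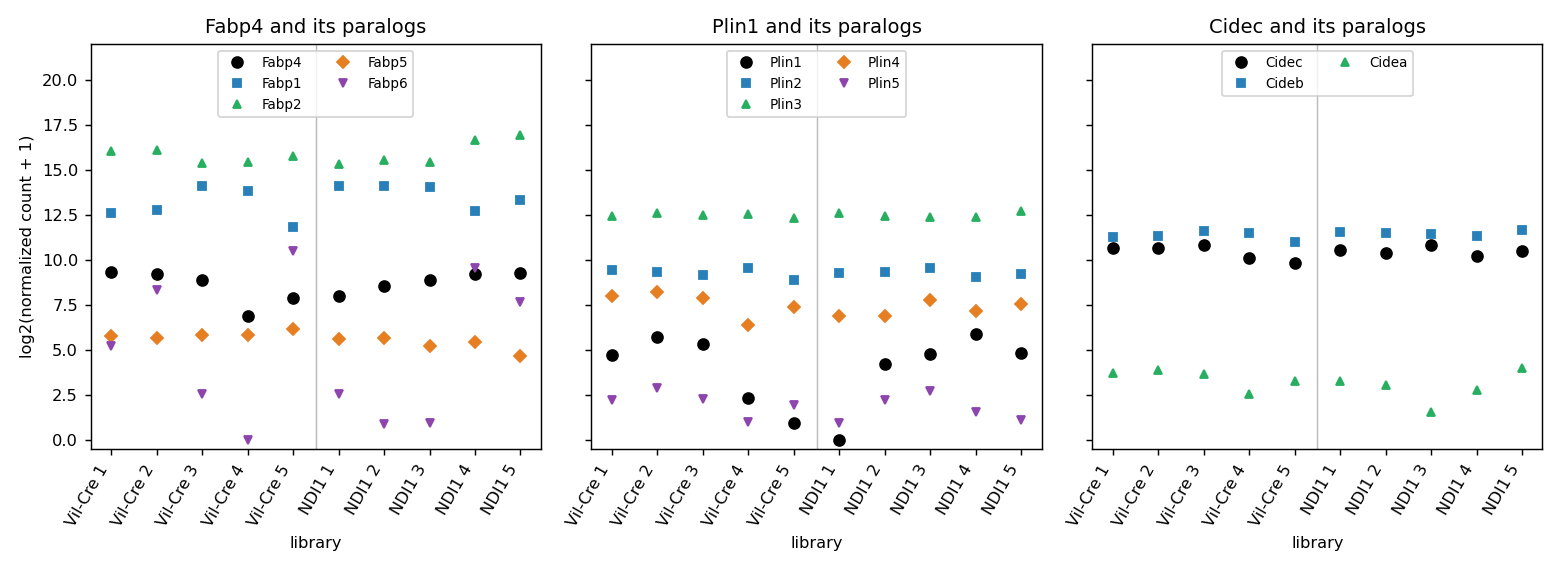
Levels of Fabp4, Plin1 and Cidec (black circles) and of their paralogs (coloured symbols) in each library, as log2(normalized count + 1), where NDI1 1 to 5 stand for Vil-Cre:NDI1 mice and a grey line parts the genotypes. Plin1 drops to 0 in Vil-Cre:NDI1 1 while Plin3 stays between 5157 and 6726, and Cidec stays next to Cideb in every library.

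Of 18 further genes listed as white adipocyte markers, 17 had a row and 12 passed the filter. Car3, the carbonic anhydrase abundant in white fat, varied like Adipoq: it was at 529, 589, 340, 7.08 and 85.5 in Vil-Cre mice and at 1.96, 235, 400, 455 and 343 in Vil-Cre:NDI1 mice, with r of 0.96 to the mean log2 level of the 7 members and 0.87 over the 7 libraries with more than 20 Adipoq reads. The other 11 had lower r to the members: 0.84 for Slc2a4, 0.74 for Plin4, 0.68 for Aqp7 and from -0.15 (Acvr1c) to 0.59 (Thrsp) for the remaining 8. Lipe (hormone-sensitive lipase) ranged only from 1001 to 1532, Cebpa from 468 to 778 and Pparg from 63.5 to 129, with r of 0.40 for Lipe and 0.54 for Pparg. Slc2a4 (the insulin-responsive glucose transporter) ranged from 69.6 to 150 and Aqp7 (a glycerol channel) from 182 to 644. Acvr1c (70.8 to 139), Lgals12 (24.3 to 60.7), Thrsp (19.4 to 64.1), Sncg (15.2 to 59.2) and Adrb3 (the beta-3 adrenergic receptor, 9.02 to 36.4) were low throughout. Adig, Mrap, Klb, Arxes1 and Arxes2 failed the filter, and Adig, an adipocyte-enriched membrane protein, was highest in Vil-Cre 2 (36.1) and Vil-Cre 1 (24.3) and had no read in Vil-Cre:NDI1 1.

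Among 21 genes of lipid handling that fat shares with gut epithelium, Scd1 and Lpl varied like the members (r of 0.93 and 0.94), and neither is among the 4 most abundant of that list, so both were named after their values were seen. Scd1 (stearoyl-CoA desaturase, which makes monounsaturated fatty acids) was at 1786, 1838, 1474, 38.4 and 518 in Vil-Cre mice and at 37.2, 368, 745, 2323 and 1870 in Vil-Cre:NDI1 mice. Lpl (lipoprotein lipase, which releases fatty acids from circulating triglyceride) was at 407, 490, 218, 22.2 and 66.0 and at 39.2, 111, 198, 233 and 204 in the same order. Over the 7 libraries with more than 20 Adipoq reads, the Lpl to Adipoq ratio spanned 1.59-fold and the Scd1 to Adipoq ratio 4.79-fold. The most abundant genes of the list were even by comparison: Pck1, the gluconeogenic and glyceroneogenic carboxykinase, was at 13233 to 29443, Dgat1 (an acyltransferase of triglyceride synthesis) at 7747 to 12562, Gpd1 at 3505 to 6735 and Dgat2 at 2875 to 7547.

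Ucp1, the uncoupling protein that defines brown and beige adipocytes, had no read in any of the 10 libraries. Of the 10 brown or beige genes, 3 passed the filter, and the most abundant, Cox7a1 (656 to 1005) and Ppargc1a (574 to 1580), are expressed in many oxidative tissues. Dio2 and Elovl3 never exceeded 3.03.

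**Figure D3:**
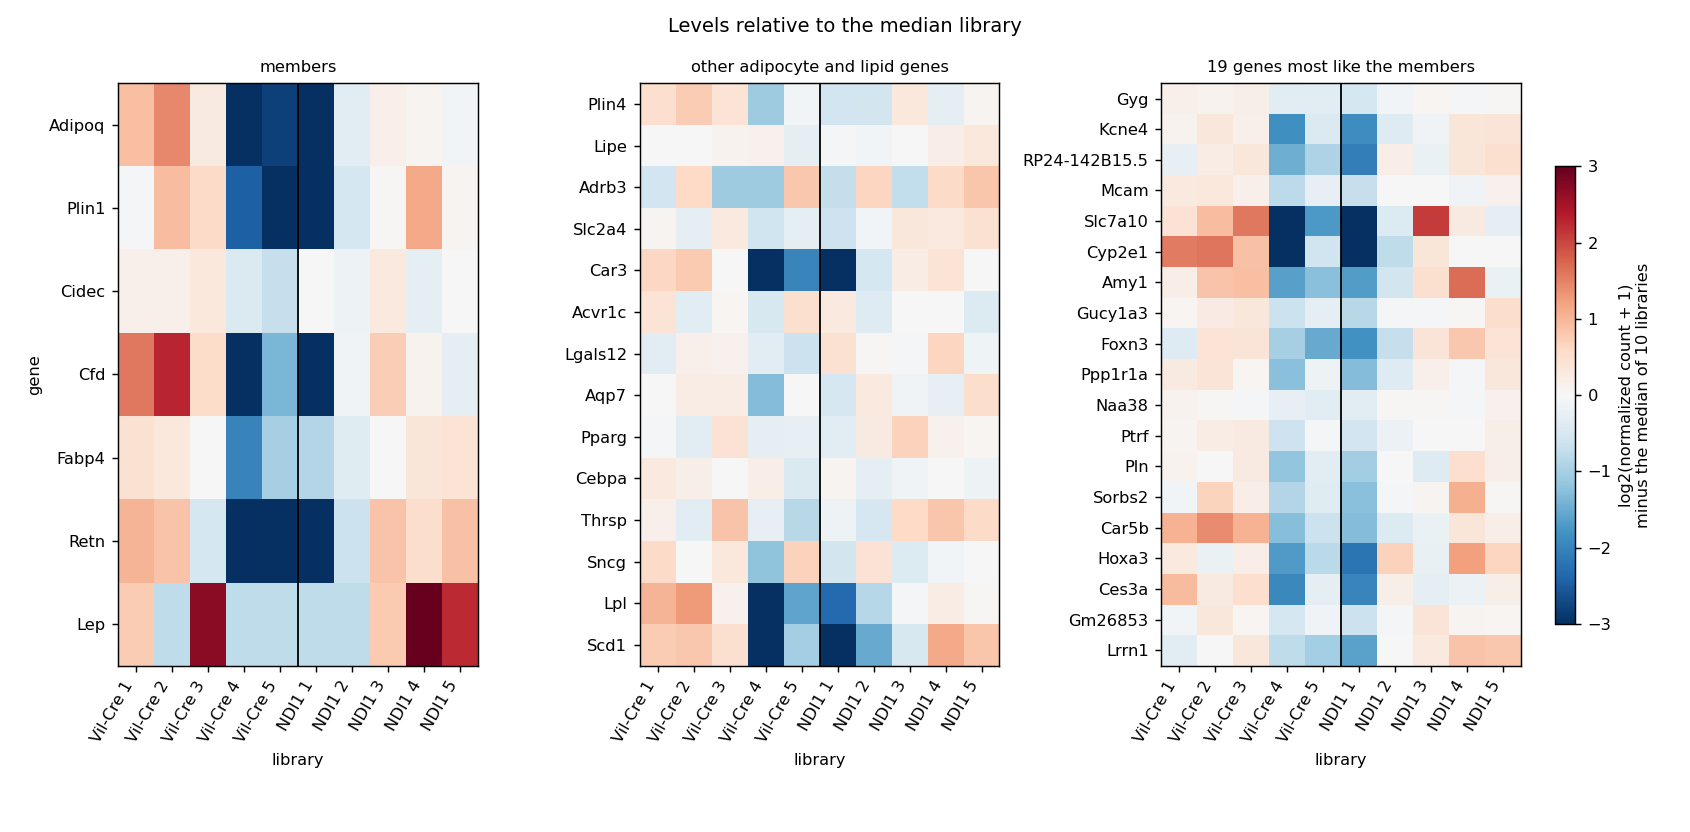
Log2(normalized count + 1) of each gene minus its median over the 10 libraries, for the members, for the white adipocyte markers that passed the filter with Lpl and Scd1, and for the 19 genes most like the members, with the colour scale ending at 3 in either direction and NDI1 1 to 5 standing for Vil-Cre:NDI1 mice. Car3 and Lpl have their 3 lowest values in Vil-Cre 4, Vil-Cre 5 and Vil-Cre:NDI1 1, Scd1 has its 3 lowest in Vil-Cre 4, Vil-Cre:NDI1 1 and Vil-Cre:NDI1 2, whereas Lipe and Cebpa are nearly even.

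The 14295 other genes tested were ranked by Pearson's r between their log2 level and the mean of the 7 members over the 10 libraries, as a description. Among genes outside all lists, Gyg (glycogenin) came first with r of 0.96, although it ranged only from 73.5 to 121 normalized counts. Kcne4 (a potassium channel subunit, r = 0.94), RP24-142B15.5 (0.93) and Mcam (a vascular adhesion molecule, 0.92) followed. Slc7a10 (an amino acid transporter, 0.92) had no read in Vil-Cre 4 and Vil-Cre:NDI1 1 and reached 40.7 in Vil-Cre:NDI1 3. Cyp2e1 (a cytochrome P450, 0.92) was at 430, 448, 269, 13.1 and 96.2 in Vil-Cre mice and at 5.88, 85.6, 186, 145 and 146 in Vil-Cre:NDI1 mice. Amy1 (amylase, 0.91), Foxn3 (0.90), Car5b (a mitochondrial carbonic anhydrase, 0.88) and Ces3a (a carboxylesterase, 0.87) were also among the 20. Others of the 20 are known from contractile or vascular cells, among them Gucy1a3 (0.90), Ptrf (0.89), Pln (phospholamban, 0.88) and Sorbs2 (0.88). Also among the 20 were Ppp1r1a, Naa38, Hoxa3, Gm26853 and Lrrn1, with r from 0.87 to 0.90. The lowest r belonged to Ncoa1 (-0.94), Usp28 (-0.90), Ddx6 (-0.89), Mllt6 (-0.89) and Lyn (-0.89), which moved little, Ncoa1 for instance from 397 to 472. Over the 20, Spearman's rho ran from 0.48 (Naa38) to 0.93 (Car5b). Without Vil-Cre 4 and Vil-Cre:NDI1 1, r fell to 0.66 for Cyp2e1 and 0.45 for Ces3a but was 0.90 for Gyg and 0.97 for Car3. Vil-Cre 5, also low in Adipoq, was still included there. Over the 7 libraries with more than 20 Adipoq reads, r of the 20 ran from -0.14 (Hoxa3) to 0.85 (Kcne4), with 0.60 for Gyg.

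Other cell types were read from marker lists, summed per library. All 8 smooth muscle genes were detected in every library, and their sum was lowest in Vil-Cre 4 (12636) and Vil-Cre:NDI1 1 (14549), with 19111 to 26620 in the other 8, including 22461 in Vil-Cre 5. Myh11, smooth muscle myosin, was at 5225 and 6357 in those libraries and at 6732 to 11595 in the others. The 9 macrophage genes summed to 953 in Vil-Cre:NDI1 1, 823 in Vil-Cre 4 and 654 in Vil-Cre 5, and to 337 to 668 elsewhere. The 8 lymph node and B-cell follicle genes summed to 1156 in Vil-Cre 5, where Ighd reached 269, and to 4.56 to 25.5 in the other 9. The 8 hepatocyte genes summed to 1290 in Vil-Cre 1, 918 in Vil-Cre 5 and 494 in Vil-Cre 3 and to 46.1 to 165 elsewhere, with Alb (albumin) at 763 in Vil-Cre 1. Their part in the levels of the adipocyte transcripts was not tested.

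The 17 further white adipocyte markers summed to 2632 in Vil-Cre 5, 2657 in Vil-Cre 4 and 2664 in Vil-Cre:NDI1 1. Their sum was 3028 to 3781 in the other libraries, so its 3 lowest values were in the 3 libraries low in Adipoq. Not every marker fell with the sum. In Vil-Cre 4, Lipe (1344) and Cebpa (735) were in the upper part of their ranges, whereas Car3 was at 7.08. In the lists of other cell types that follow, the 3 lowest sums were not those of these 3 libraries. Some were still lowest in Vil-Cre 4, among them the neuronal and glial sum (220) and the exocrine pancreas sum (263). In Vil-Cre:NDI1 1 these sums were 253 and 412, in that order. The 7 mesothelial genes, which mark the serosal lining, summed to 142 to 318, with 206 in Vil-Cre 4, 184 in Vil-Cre 5 and 181 in Vil-Cre:NDI1 1. The 8 blood endothelial genes summed to 660 to 902, with the lowest value in Vil-Cre 4 and the highest in Vil-Cre:NDI1 1, and the 6 lymphatic genes to 216 to 515. The 6 fibroblast genes summed to 2006 to 3016 and the 7 neuronal and glial genes to 220 to 445. The sum of the 10 adipose stromal genes (13038 to 18627) was carried by Dpp4, which enterocytes also express. Of the 10 exocrine pancreas genes only Clps was abundant (257 to 1153), and Cpa1, Pnlip, Cela2a, Cela3b and Try4 had no read in any library. The 11 enterocyte genes summed to 418044 in Vil-Cre 5 and to 586784 or more in the other 9.

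**Figure D4:**
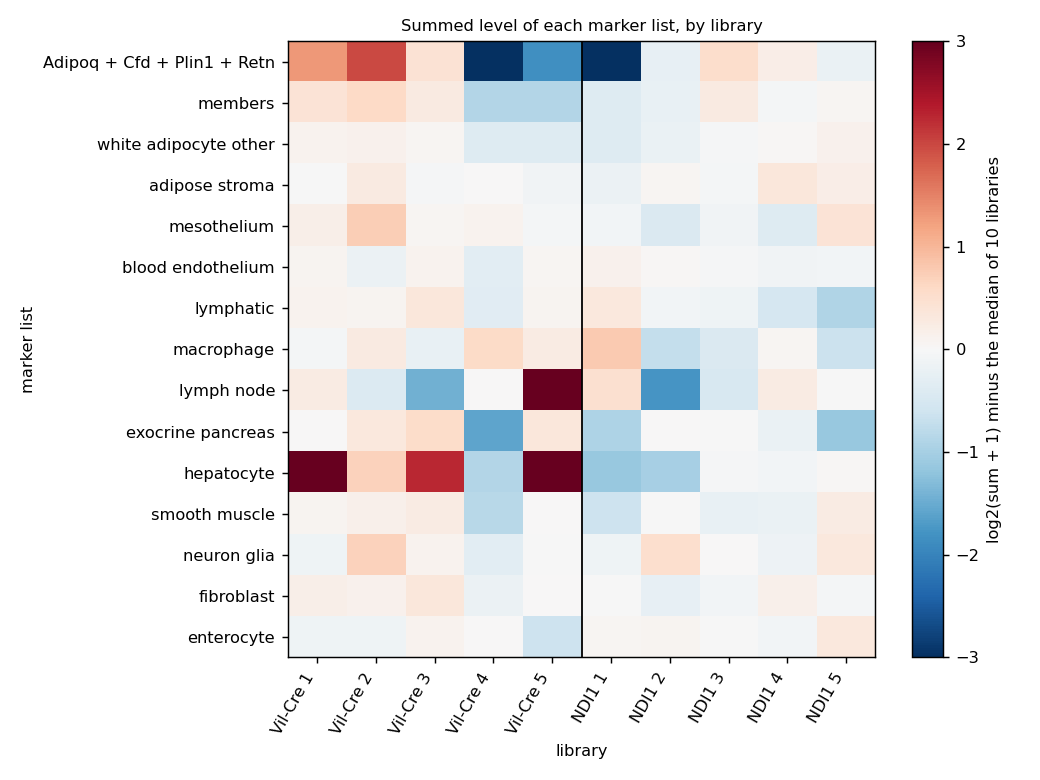
Summed normalized count of each marker list per library, as log2(sum + 1) minus the median over the 10 libraries, with the colour scale ending at 3 in either direction and NDI1 1 to 5 standing for Vil-Cre:NDI1 mice. The sum of Adipoq, Cfd, Plin1 and Retn is low in Vil-Cre 4, Vil-Cre 5 and Vil-Cre:NDI1 1, the smooth muscle sum is low in Vil-Cre 4 and Vil-Cre:NDI1 1, and the lymph node sum is high in Vil-Cre 5.

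Receptors and partners of the secreted proteins were present in jejunum whether or not the ligand was. Adipor1 and Adipor2, the adiponectin receptors, were at 1317 to 2075 and 2987 to 4994 normalized counts, and Cdh13, which binds adiponectin on endothelium, at 10.8 to 29.4. Lepr, the leptin receptor, was at 28.3 to 84.3 in 8 libraries, whereas Vil-Cre 3 had 378 and Vil-Cre:NDI1 4 had 1182, and these were the libraries with the highest Lep values (10.02 and 18.6). Those Lep values rest on 10 and 19 reads. Vil-Cre:NDI1 5, next in Lep at 7.04 (6 reads), had Lepr at 54.0. Whether Lep and Lepr vary together was not tested. Cap1, a reported receptor of resistin, was at 2645 to 3496. Of the complement proteins that act with factor D, Cfb (factor B, its substrate) was at 1999 to 3217, C3 at 455 to 1309 and Cfp (properdin) at 20.04 to 60.1.

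The genotypes were compared because the study asked whether NDI1 alters the jejunal transcriptome, and the members enter as 6 of the 14301 genes tested. The 6 were not called, and the groups overlapped for each of them. Adipoq averaged 71.6 ± 69.5 normalized counts in the control group and 47.0 ± 27.2 in the NDI1 group (SD, n = 5 each), with a log2 fold change of -0.19 (standard error 1.43, limma adjusted p = 0.998). Cfd was at 391 ± 401 and 181 ± 120 (log2 fold change -0.84, standard error 1.59), and Retn at 8.63 ± 9.43 and 10.8 ± 7.81 (0.72, standard error 1.099). Plin1 was at 24.5 ± 22.04 and 26.6 ± 21.7 (0.14, standard error 1.18). Fabp4 was at 415 ± 231 and 471 ± 159 (0.36, standard error 0.44), and Cidec at 1433 ± 398 and 1462 ± 228 (0.07, standard error 0.19). The adjusted p was 0.998 for all 6.

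With limma, 0 of the 6 members passed at an adjusted p under 0.05, where 0.00699% of all genes tested did (NDI1 alone), and 0 of 6 had an unadjusted p under 0.05, where 4.24% of all genes tested did, so that counts of 0 in lists of this size are near the background. In none of the 6 did the libraries of the groups fail to overlap, as they did for 0.699% of all genes tested. On recovered reads, DESeq2 called 0 members and 0.179% of all genes it tested, and edgeR called 0 members and 0.00699%. The median log2 fold change was 0.10 over the 6 members, 0.12 over the 12 further white adipocyte markers tested and 0.0052 over all genes tested. Of those 12 markers, 0 were called and 0 had an unadjusted p under 0.05 (4.24% of all genes tested), and their log2 fold changes ran from -0.31 (Plin4) to 0.40 (Lgals12). Car3 (-0.15, standard error 1.52), Scd1 (-0.22, standard error 1.26) and Lpl (-0.13, standard error 0.81) were not called either. Among 9 genes of fasting lipolysis, 9 receptor and partner genes, 21 shared lipid genes, 3 brown or beige genes and 10 adipogenic transcription factors that were tested, 0 were called, and at an unadjusted p under 0.05 the counts were 0, 0, 2, 0 and 0, beside the same 4.24% of all genes. The lists share genes, so these counts are not independent. The fasting lipolysis list, for instance, includes Cidec, a member, and Adrb3, a white adipocyte marker.

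The intervals show how far the libraries limit this comparison. The 95% interval of the log2 fold change ran from -3.33 to 2.94 for Adipoq, from -4.33 to 2.65 for Cfd, from -2.44 to 2.73 for Plin1 and from -1.69 to 3.13 for Retn, so that sizeable differences in either direction were not detectable. It was narrower for Fabp4 (-0.61 to 1.33) and narrowest for Cidec (-0.35 to 0.48). The libraries low in Adipoq fell in both groups, with 2 Vil-Cre mice and 1 Vil-Cre:NDI1 mouse below 10 normalized counts. Without Vil-Cre:NDI1 1, the log2 fold change of Adipoq was 0.98 and that of Cfd 0.52, and without Vil-Cre 5 that of Plin1 was -0.57, none of them called.

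**Figure D5:**
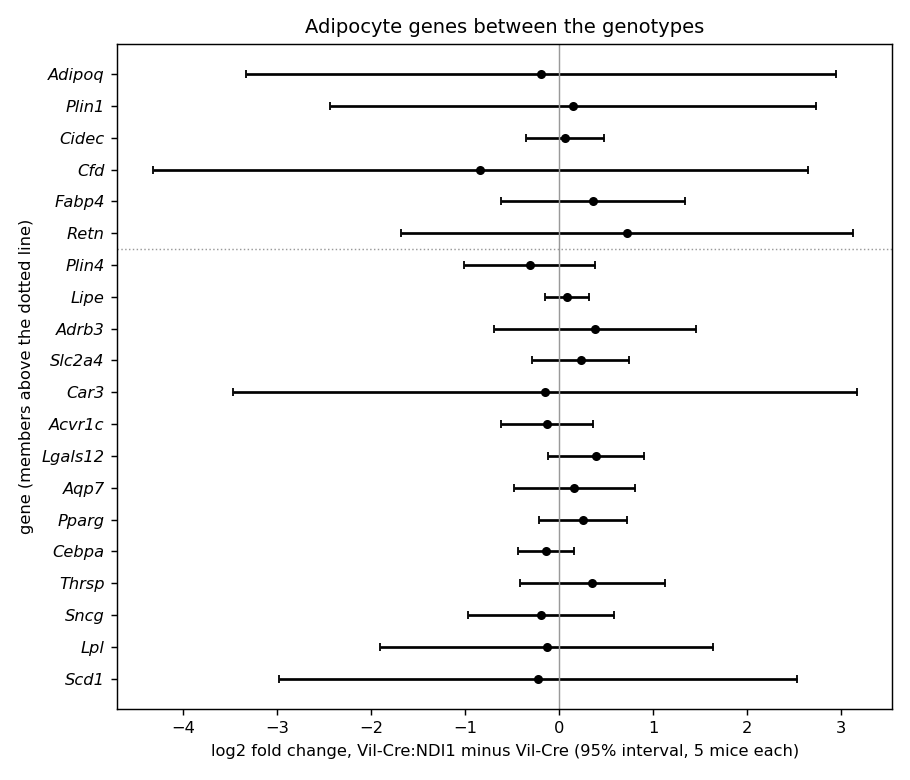
Log2 fold change between the genotypes (Vil-Cre:NDI1 minus Vil-Cre) from limma with its 95% interval, 5 mice in each group, for the 6 members tested and for 14 other adipocyte and lipid genes. All intervals include 0, and those of Adipoq, Cfd and Car3 are the widest while that of Cidec runs from -0.35 to 0.48.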

How the data were processed

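The table deposited by the authors holds a signal, normalized counts per gene for 10 jejunal libraries. According to the methods, reads were trimmed with trimGalore!, aligned with STAR to GRCm38 plus the NDI1 sequence and assigned with Salmon, and DESeq2 was used for the analysis. That the deposited values are whole reads divided by 1 size factor per library was read from the values. Strand use and annotation release are not given in the sources used here. Reads were recovered as multiples of each library's smallest value (100% of values whole, tolerance 0.1).

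Genotypes were compared with limma 3.58.1 (R 4.3.3) (eBayes, trended prior variance) fitted to log2(value + 1) of 14301 genes, and p-values were adjusted by Benjamini-Hochberg. Fold changes on this scale understate those of low genes. Alternatives were DESeq2 1.42.0 and edgeR 4.0.16 on recovered reads, other pseudocounts, filters and scaling, a replicate block and leaving out each mouse. The fit was tested on simulated data. Lengths came from GENCODE M21. Counting intervals are exact at 95% and cover counting error only.

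The members and the gene lists were chosen with earlier results of these data known. Genes were named by rule: members, their paralogs and receptors, all further white adipocyte markers, the 4 most abundant genes of other lists, and the 20 most like and 5 least like the members. Scd1, Lpl, Ucp1, Elovl3, Dio2 and the exocrine pancreas genes without reads fall outside the rule and were named after their values were seen. Some genes that the rule names are not reported here.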

Additional observations from a re-analysis of the deposited data

Results flagged for a closer look

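A value far from the other 4 of its group was looked for with Dixon's test in 76 groups of 5, for the summed levels of 12 marker lists of other cell types and for 26 paralogs, receptors and partners. The members were left out because their unevenness chose them. If the values were normally distributed, chance would flag about 1 in 20 groups, which is 3.8 of 76, and 10 were found. The test was run on unlogged counts, which are skewed. Where all other values are 0, a single read is flagged automatically. The rate therefore does not hold here, and whether 10 exceeds chance cannot be told.

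The lymph node and B-cell follicle sum was 1156 normalized counts in Vil-Cre 5 and 6.01 to 21.5 in the other Vil-Cre mice. The mesothelial sum was 318 in Vil-Cre 2 and 184 to 218 in the others of its group. Lepr was at 378 in Vil-Cre 3 (others of the group 28.3 to 62.2), and its level of 1182 in Vil-Cre:NDI1 4 compares with 39.2 to 84.3 in that group. Fabp6 was at 1477 in Vil-Cre 5 (others 0 to 325) and at 772 in Vil-Cre:NDI1 4 (others 0.911 to 201). Cfb was at 3217 in Vil-Cre:NDI1 5 (others 2286 to 2512). Fabp3 was at 5.83 in Vil-Cre 5 (others 0 to 0.934). Fabp9 (0.934 in Vil-Cre 1) and Fabp12 (1.09 in Vil-Cre 2) each rest on 1 read, with 0 in the others of the group.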

How the results depend on the processing

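Under every alternative run, 0 members were called. limma called 1 gene, but 2 with a minimum of 50 normalized counts, and DESeq2 called 31. Leaving out 1 mouse at a time (with the filter at 4 mice) gave 1 to 3 genes. Correlations between mice with the same replicate number, after centring each genotype, ran from -0.12 to 0.14. Mice with different numbers were not compared, so whether the numbers mark pairs cannot be told. With a replicate block 1 gene and 0 members were called.

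The signs of the members' fold changes were not stable. With 1 mouse left out, the log2 fold change ran from -1.17 to 0.98 for Adipoq, -0.57 to 1.14 for Plin1, -0.081 to 0.17 for Cidec, -2.002 to 0.52 for Cfd, -0.030 to 0.59 for Fabp4, -1.20 to 1.22 for Car3, -1.22 to 0.73 for Scd1 and -0.80 to 0.30 for Lpl, and from 0.15 to 1.47 for Retn, which kept its sign. With a pseudocount of 0.1 Plin1 was at -0.30, and with one of 8 Car3 was at 0.0064. The cause was not tested. Adjusted p-values of the 6 members ranged from 0.864 to 1.00 over all settings.

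The ratio of the highest to the lowest summed level was 2.48 to 2.81 with 1 mouse left out, 3.54 per kilobase of exon and, as alternatives chosen after seeing the data, 3.64 per kilobase of the longest coding transcript and 14.1 without Cidec. Of the 20 genes most like the members, 5 stayed among the 20 with Spearman's rho, and 0 over the 7 libraries with more than 20 Adipoq reads, also chosen after seeing the data. Depth limits Lep, Retn and Plin1, which had at most 19, 21 and 61 reads in a library.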
